A study of Drosophila melanogaster with 2 samples.

Results

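The Rab genes of Drosophila melanogaster were examined in a ChIP-seq experiment on Glass, the zinc finger protein that photoreceptors need in order to develop. Members were the protein-coding genes of the Ensembl annotation whose symbol starts with Rab or RabX followed by a digit, 36 of 13945 genes on the chromosome arms X, 4, 3R, 3L, 2R and 2L. Of these, 33 encode Rab GTPases, and the label Rab GTPase holds for them alone: Rab3-GEF, Rab3GAP1 and Rab3-GAP share the symbol pattern but are named for regulators that act on Rab3. Chromatin came from whole pupae, aged 24 hours and pooled over both sexes, of a transgenic line that stably expresses Glass with GFP at its C terminus. The labels give 2 biological replicates of this 1 group and neither another genotype nor another condition. They do not say what drives the transgene, and peaks from whole animals join all cell types. Their free text calls both samples an input control, but the antibody is given as gl and the peak files are those of a ChIP, and they were taken as such. No test between groups is possible, so members are given with their values in each replicate and with the share of all protein-coding genes that met the same rule.

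Rab proteins are small GTPases that mark membrane compartments. In the GTP-bound state they recruit effectors such as motors and tethers. Exchange factors load them with GTP, GTPase-activating proteins switch them off, and a GDP dissociation inhibitor carries them through the cytosol. In fly photoreceptors Rab1 and Rab6 act in the passage of membrane proteins through the Golgi apparatus and Rab11 in their delivery to the rhabdomere, the stack of light-sensing membrane.

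The sequences under the peaks show where Glass signal was centred at the Rab genes that were bound in both replicates. Peaks came from the authors' optimal list, which keeps what passed a threshold on the irreproducible discovery rate and had 4809 entries. Each window is plus-strand dm6 sequence, read from the RefSeq copy of that assembly, and reaches 50 bases to either side of the strongest optimal summit of a member. The capital letter marks the summit base, and none of these windows held a motif that was searched. Shown are 7 of the members with a rank of at most 4809 in both replicate lists. The summits shown for Rab30 and RabX5 lie outside these genes and nearer to the start of another gene, Caper and RpL23A.
Rab5, chr2L:2363699-2363799: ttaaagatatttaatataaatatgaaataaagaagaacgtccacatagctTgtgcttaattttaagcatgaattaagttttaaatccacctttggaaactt
Rab30, chr2L:7033418-7033518: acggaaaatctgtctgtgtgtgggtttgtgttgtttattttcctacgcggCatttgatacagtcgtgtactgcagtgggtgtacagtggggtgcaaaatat
RabX5, chr3L:1668663-1668763: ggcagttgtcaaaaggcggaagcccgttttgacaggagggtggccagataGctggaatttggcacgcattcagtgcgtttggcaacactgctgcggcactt
Rab8, chr3L:19869911-19870011: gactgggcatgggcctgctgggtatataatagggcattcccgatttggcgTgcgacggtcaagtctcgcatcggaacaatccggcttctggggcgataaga
Rab11, chr3R:21113166-21113266: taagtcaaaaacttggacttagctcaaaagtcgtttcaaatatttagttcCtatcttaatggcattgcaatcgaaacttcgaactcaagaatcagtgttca
Rab7, chr3R:23993551-23993651: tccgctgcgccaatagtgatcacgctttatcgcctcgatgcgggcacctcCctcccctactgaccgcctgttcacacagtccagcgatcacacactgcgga
Rab39, chrX:7735453-7735553: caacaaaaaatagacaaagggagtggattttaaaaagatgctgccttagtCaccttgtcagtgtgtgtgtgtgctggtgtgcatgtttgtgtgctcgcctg

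The windows differed in composition. The one at Rab5 had 24.8% G and C and the one at Rab7 had 60.4%, and the median of all 16 windows at Rab genes was 44.6%, against 37.6% over the 4809 optimal windows. The 16 windows held few of the 8 motifs searched on both strands. GAGAGA, the repeat bound by the GAGA factor, was in 1 of the 16 windows, at Rab35, against 7.88% of all optimal windows. TGACTC of AP-1 was in 1, at Rab1, against 2.89%. None of the 16 held TATCGA (3.56% of all optimal windows), CACGTG (0.915%), AGATAA (6.53%), TAATTA (5.93%), CAGGTA (1.95%) or CAAAGTCC (1.95%). With 16 windows and motifs this rare, 0 or 1 match is near the count that the shares over all windows give.

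A gene counted as bound where at least 1 summit fell between 1 kb before its start and 1 kb past its end. In the optimal list 13 of the 36 Rab genes were bound (36.1%), against 23.1% of all protein-coding genes. Among the 4809 strongest entries of each replicate list, 12 were bound in replicate 1 (all genes 22.8%) and 12 in replicate 2 (all genes 23.1%). In both replicates together 10 were bound (all genes 17.6%), and all 10 were among the 13. A summit lay within 1 kb of a transcription start site (TSS) of the gene itself in 9 members (25%), against 17.0% of all genes. Within 500 bp of a TSS it was 5 members (13.9%), against 13.8% of all genes, so the difference was not seen at that distance. Rab5, Rab18 and Rab32 had 2 optimal summits each, and the other 10 bound members 1; 3 of 36 members with 2 or more compare with 7.11% of all genes.

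Strongest peaks at Rab genes were lower, in the median, than those at bound genes in general. The authors' signal value, used to rank peaks within a list, had a median of 172 over the strongest peaks of the 13 bound members, against 231 over the 3224 bound protein-coding genes. Without the regulators of Rab3 that median was 190. Over all 16 member summits the median was 185.5, against 200.4 over the optimal list, a smaller gap. The 16 summits ranged from 129.5 to 636 in a list that runs from 127 to 3648. Of the 13 members, 6 had their strongest peak above the median of that list, 200.4, namely Rab5, Rab30, Rab32, Rab7, Rab39 and Rab18. Of the 3224 bound protein-coding genes, 1903 did. As shares of all genes these were 16.7% of the 36 members and 13.6% of protein-coding genes.

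**Figure D1:**
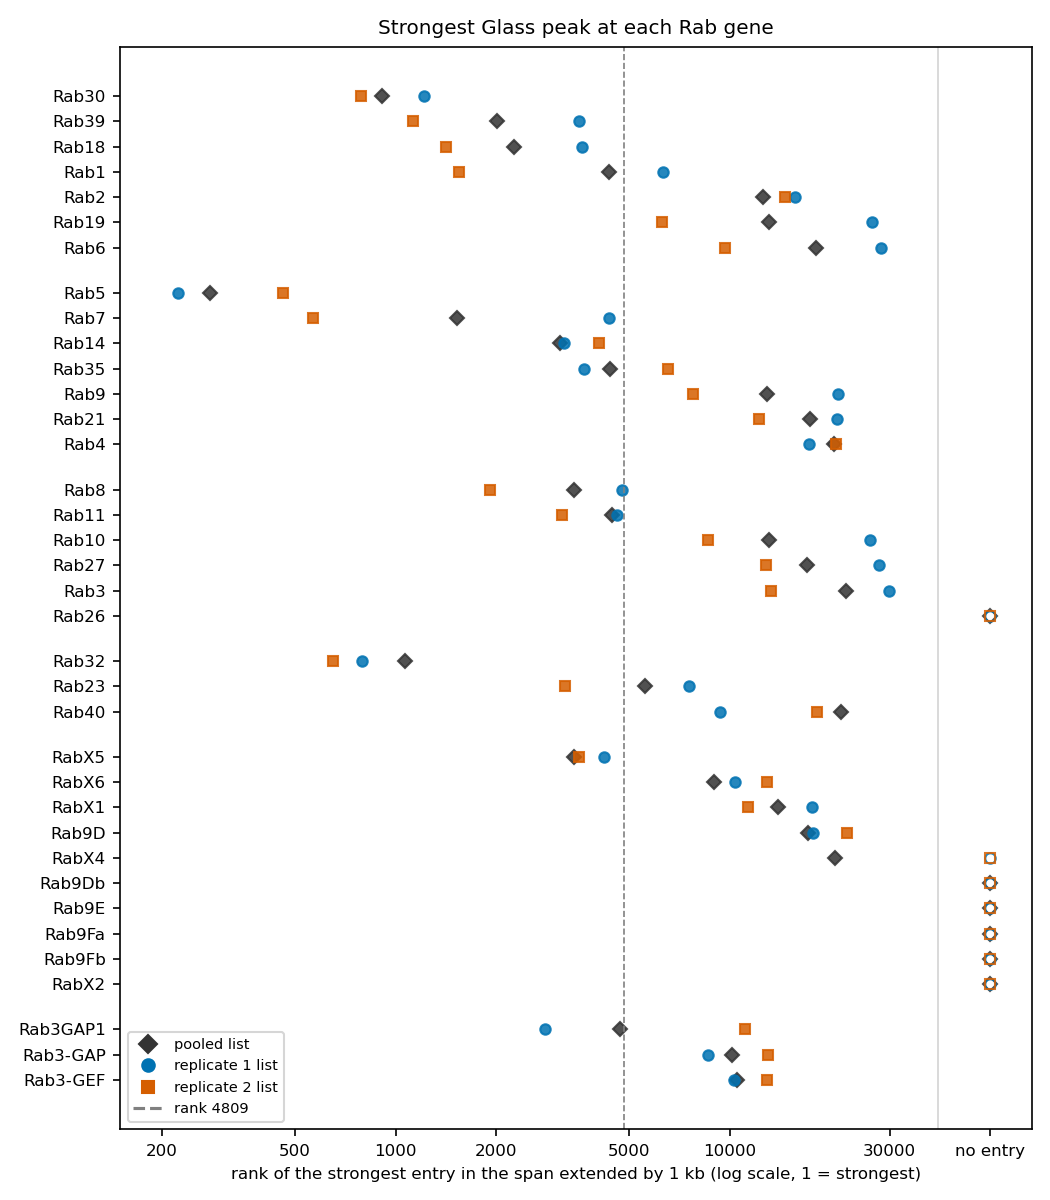
Rank of the strongest entry in the extended span of each of the 36 Rab genes (x axis, log scale, 1 is the strongest) in the pooled list (diamonds), the replicate 1 list (circles) and the replicate 2 list (squares), with members on the y axis in their role groups from Golgi to regulators of Rab3. The dashed line marks rank 4809, open symbols at the right edge mark lists with no entry, and Rab5 lies farthest to the left with ranks 279, 223 and 461.

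Genes of the early and late endosome held the strongest peak. Of 7 such members, Rab5, Rab7, Rab14 and Rab35 were bound. By the same rule 23.1% of all protein-coding genes were bound, the share to set beside each role group here and below. The groups were set by hand and are small, and differences between them were not tested. Rab5 (FBgn0014010, 2L 2359142 to 2365273, minus strand) directs the fusion of early endosomes. Its stronger peak (2L 2363604 to 2363900) ranked 279 of 4809 at a signal value of 636, in an intron, 245 bp from the nearest of the 6 TSSs of the gene. That peak had signal values of 413 in the replicate 1 list (rank 223) and 221 in the replicate 2 list (rank 461), and it was strong in both. A weaker Rab5 peak, in another part of the intronic sequence and 345 bp from a TSS, had a signal value of 199 and ranked 6968 in replicate 1 and 1121 in replicate 2. The second peak was therefore outside the 4809 strongest entries of replicate 1.

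Rab7 (FBgn0015795, 3R 23993008 to 23995452, plus strand) acts in the step to late endosomes and lysosomes. It had 1 optimal summit in an intron, 132 bp from a TSS, with a signal value of 269 and rank 1521. The replicates differed at Rab7: rank 4337 (signal value 78.3) in replicate 1 and rank 566 (199) in replicate 2. At Rab14 (FBgn0015791, 2L 14355145 to 14358764, plus strand), which acts between endosomes and the Golgi apparatus, the summit lay in the 5′ UTR, 60 bp from a TSS. Its signal value was 172, with ranks of 3191 in replicate 1 and 4064 in replicate 2. The TSS of l(2)34Fd was 120 bp from the same summit, so both genes had a start close to it. Rab35 (FBgn0031090, X 20155766 to 20159872, minus strand), an endocytic recycling Rab, had a peak of 136 in its 5′ UTR, 787 bp from the TSS. It ranked 3644 in replicate 1 and 6530 in replicate 2, and thus was outside the strongest entries of replicate 2.

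The unbound endosomal members were Rab4, Rab9 and Rab21. Their strongest entries in the pooled list, which held 30000, ranked 20467 (Rab4, of fast recycling), 12903 (Rab9, of late endosomes) and 17305 (Rab21, of early endosomes). These lie far below rank 4809.

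Among 7 members grouped with the endoplasmic reticulum and the Golgi apparatus, Rab30, Rab39, Rab18 and Rab1 were bound. The peak counted for Rab30 (FBgn0031882, 2L 7030493 to 7032606, minus strand) had a signal value of 362 and rank 908, and ranked 1213 in replicate 1 (signal value 186) and 786 in replicate 2 (169). It lay 862 bp upstream of Rab30, inside the gene Caper and 747 bp from the TSS of Caper, so the summit was nearer to the neighbour. Rab39 (FBgn0029959, X 7734923 to 7736756, plus strand) held a summit in its intron, 580 bp from the TSS, with a signal value of 225. This summit ranked 3916 in replicate 1 and 1124 in replicate 2.

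Rab18 (FBgn0015794, X 5670827 to 5671812, minus strand), known at the endoplasmic reticulum and lipid droplets, had a summit in its 5′ UTR, 130 bp from the TSS. That peak had a signal value of 209, with rank 1418 (125) in replicate 2. The nearest entry of replicate 1 ranked 21765 (21.4), and another within 200 bp ranked 3597 (89.1). A second summit, of 164, lay 870 bp upstream of the Rab18 TSS and 52 bp from the TSS of RpL35, a ribosomal protein gene that it lies in. Rab1 (FBgn0285937, 3R 21266029 to 21269060, minus strand), which acts between the endoplasmic reticulum and the Golgi apparatus, had a summit in an intron, 681 bp from the TSS, with a signal value of 136. The replicates were far apart at Rab1: rank 25493 (signal value 18.4) in replicate 1, where another entry within 200 bp ranked 14486, and rank 1545 (119) in replicate 2. The Rab1 peak was strong in replicate 2 alone.

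The other 3 of this group, Rab6, Rab2 and Rab19, had no optimal summit. Rab6, a Golgi Rab, had 1 pooled entry, at rank 18039, 15 bp from its TSS, and its best ranks were 28197 in replicate 1 and 9663 in replicate 2. The best pooled ranks were 12542 for Rab2 and 13097 for Rab19.

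**Figure D2:**
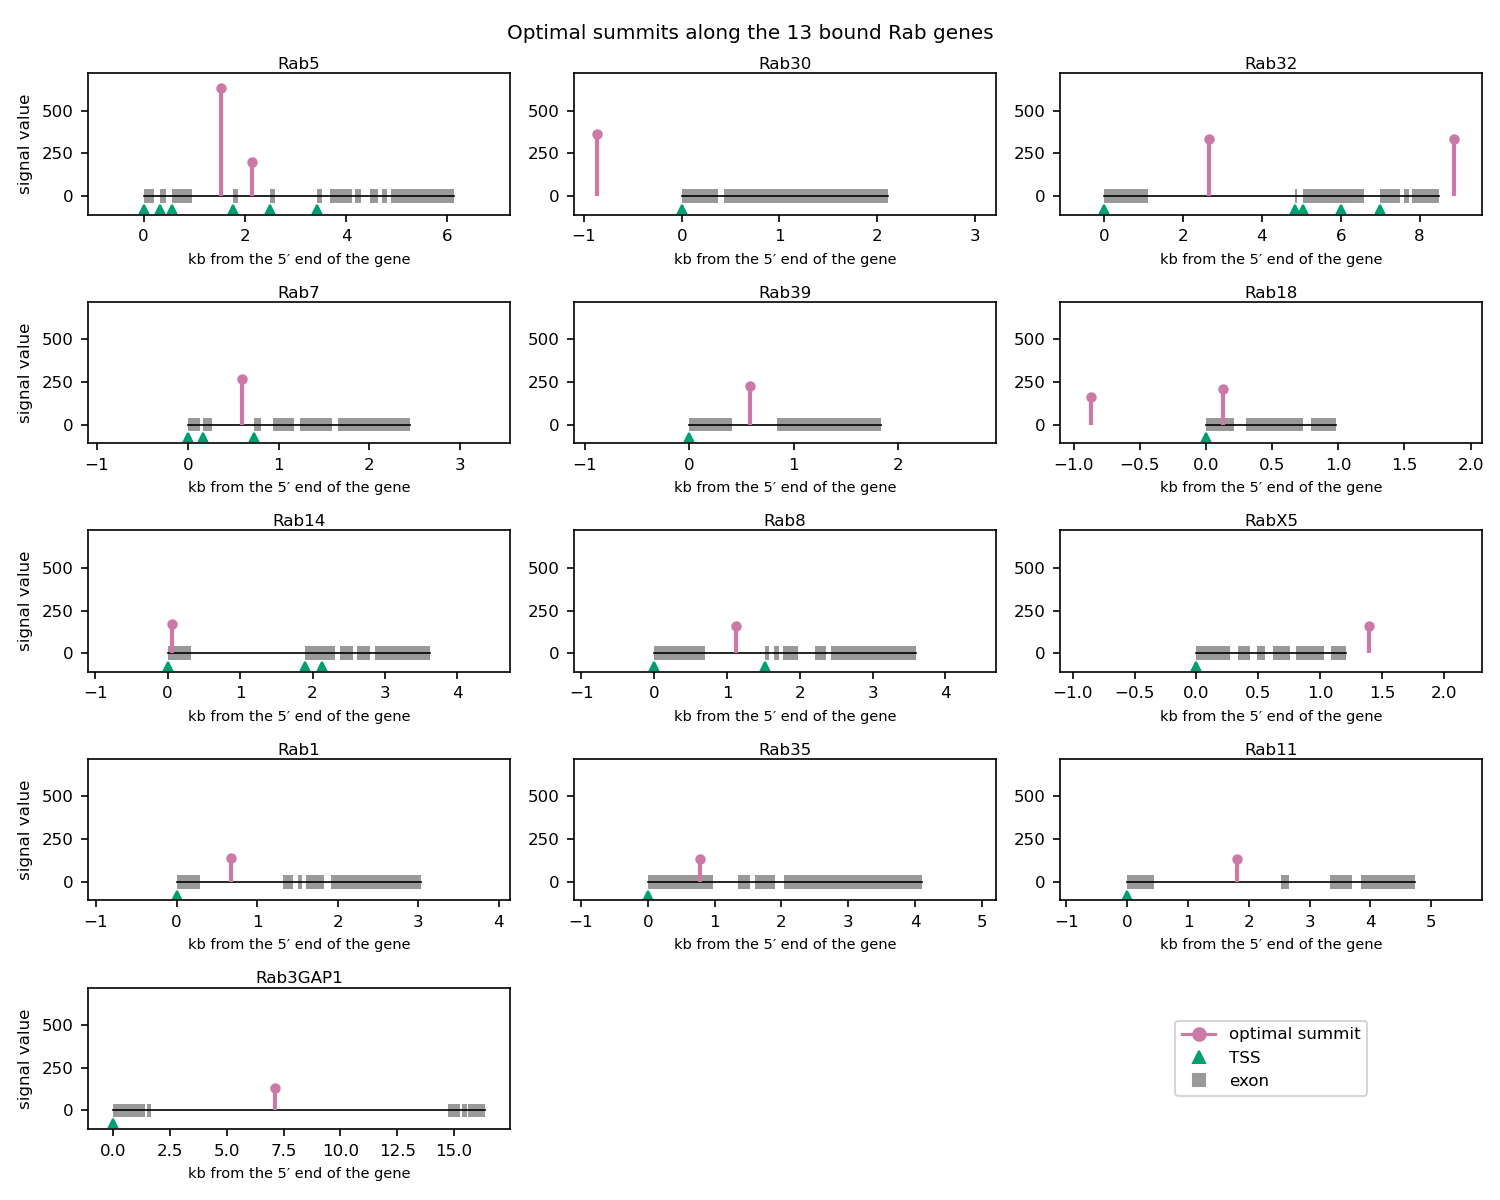
Positions of the 16 optimal summits at the 13 bound Rab genes, with distance from the 5′ end of the gene in kb on the x axis (the gene runs left to right) and the authors' signal value on the y axis. Grey boxes are exons and triangles are TSSs; 9 summits stand in introns of the member, 3 in a 5′ UTR, and 4 outside the gene, at Rab30, Rab18, RabX5 and Rab32.

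Of 6 members of secretory vesicles, the plasma membrane and recycling, Rab8 and Rab11 were bound. Rab8 (FBgn0262518, 3L 19867488 to 19871078, minus strand), of transport from the Golgi apparatus to the plasma membrane, had a summit in an intron, 403 bp from a TSS. Its signal value was 161, with rank 4735 in replicate 1 and rank 1915 in replicate 2. Rab11 (FBgn0015790, 3R 21111408 to 21116146, plus strand), of the recycling endosome, had a summit in an intron, 1808 bp from the TSS. The Rab11 peak was close to the end of the list, at rank 4437 of 4809 and a signal value of 134. It was similar in both replicates, with rank 4577 (signal value 75.7) in replicate 1 and rank 3140 (80.5) in replicate 2.

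The other 4 members of this group were not bound. Rab3, of synaptic vesicles, had 1 pooled entry at rank 22183, and Rab27 had 1 at rank 16987, while the best entry of Rab10 ranked 13100. Rab26 (FBgn0086913, 3L 21318774 to 21335027, plus strand) had no entry in the pooled list or in either replicate list over a span of 16254 bp. Of the 1277 protein-coding genes with a span at least that long, 10.3% had no entry in any of these lists.

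Rab32 (FBgn0002567, 2R 9177864 to 9186342, minus strand), also known as lightoid, is needed for the pigment granules that colour the eye. It had 2 optimal summits of nearly the same height, 334 in an intron, 2189 bp from its nearest TSS, and 333 beyond its 3′ end. The intronic summit ranked 1837 in replicate 1 and 648 in replicate 2. The summit beyond the 3′ end ranked 792 in replicate 1 and 1719 in replicate 2, and lay 202 bp from the TSS of Rme-8, a gene of receptor-mediated endocytosis. Neither was within 1 kb of a TSS of Rab32. The gene had 13 entries of the pooled list, the most of any member. Rab23 and Rab40 had no optimal summit. Rab23, with roles in planar cell polarity, came nearest, with a best pooled entry at rank 5553 and a signal value of 115, and with best ranks of 7548 in replicate 1 and 3201 in replicate 2. The best pooled entry of Rab40 ranked 21419.

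Of 10 little studied or lineage-specific members, 1 was bound. RabX5 (FBgn0035255, 3L 1668901 to 1670108, minus strand) had a summit of 161 beyond its 3′ end, 1395 bp from its own TSS and 59 bp from the TSS of RpL23A, a ribosomal protein gene. It ranked 4184 in replicate 1 and 3538 in replicate 2. RabX6, RabX1, Rab9D and RabX4 had pooled entries with best ranks of 8982, 13943, 17137 and 20618. RabX2, Rab9Db, Rab9E, Rab9Fa and Rab9Fb had no entry in any of the 3 lists of 30000. With Rab26, 6 of 36 members (16.7%) had none, against 29.7% of all protein-coding genes.

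These genes of X share features that the choice of members did not use. RabX2, Rab9D, Rab9Db, Rab9E, Rab9Fa and Rab9Fb have a single exon and a span of 791 to 897 bp. With Rab6 they are the 7 single-exon members, of which 0 were bound in the optimal list, against 10% of 2273 single-exon genes. For 4 of the 6, much of the sequence recurs elsewhere on the arms. Of the words of 50 bases in the span, 93.9% were repeated for Rab9Fa, 93.2% for Rab9D, 85.6% for Rab9Db and 80.1% for Rab9E, against 9.16% for RabX2 and 0% for Rab9Fb. In the extended span the share was 17.4% to 38.7% for the 5 Rab9 genes of X, and below 1% for every other member except RabX2. How the authors treated reads that align to several places is not given in the sources used here, and its part in the empty spans was not tested.

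Among the regulators of Rab3, Rab3GAP1 (FBgn0051935, 2L 1594822 to 1611157, minus strand) was bound. Its summit lay in a long intron, 7142 bp from the TSS and inside the gene haf as well, at rank 4671 of 4809 and a signal value of 129.5. It ranked 2795 (signal value 106) in replicate 1 and 13429 (30.3) in replicate 2, and was strong in replicate 1 alone. Rab3-GAP and Rab3-GEF had best pooled ranks of 10107 and 10512.

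The next question was how well the replicates matched at these peaks. All 16 optimal summits had an entry within 200 bp in both replicate lists, as had 97.3% of all optimal summits. Going by the nearest such entry, 11 of the 16 were among the 4809 strongest entries in both replicates, against 61.7% of all optimal summits. By this rule the exceptions strong in replicate 2 alone were the weaker summit of Rab5, the stronger one of Rab18 and that of Rab1. Those of Rab35 and Rab3GAP1 were strong in replicate 1 alone. For Rab18 this depends on the choice of entry, as another replicate 1 entry within 200 bp of that summit ranked 3597. Rank was better in replicate 2 for 11 of the 16 and in replicate 1 for 5, whereas over all optimal summits with an entry in both lists 48.7% ranked better in replicate 2. The optimal list was made from both replicates and the pooled list, so presence in both is in part a condition of being in it.

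**Figure D3:**
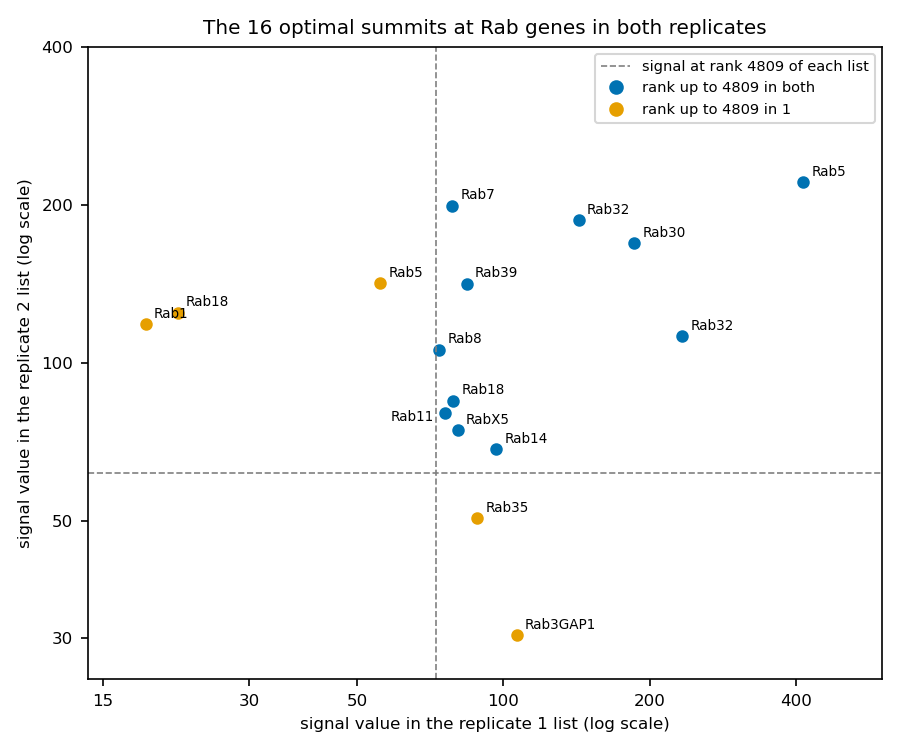
Authors' signal value of each of the 16 optimal summits at Rab genes in the replicate 1 list (x axis, log scale) and the replicate 2 list (y axis, log scale). Values are those of the nearest entry within 200 bp. Dashed lines mark the signal at rank 4809 of each list; 11 summits lie past both lines and 5, at Rab1, Rab5, Rab18, Rab35 and Rab3GAP1, past 1 of them.

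Most summits lay inside the member, which is in part a condition of counting only summits within the span extended by 1 kb. A summit inside the gene was found for 11 of 36 members (30.6%), against 12.8% of all protein-coding genes. The counts that follow describe the member summits only, as the same shares over all optimal summits were not computed. Of the 16 summits, 9 lay in an intron of the member, 3 in its 5′ UTR, 2 upstream and 2 beyond the 3′ end, and none was in a coding exon. For 12 the nearest TSS of any protein-coding gene was that of the member. The nearest TSS belonged to another gene at 4 summits, those of Caper, Rme-8, RpL23A and RpL35. In all, 10 of the 16 summits also lay in the extended span of another protein-coding gene and count for that gene as well.

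Members differ in length, and so does the share of genes bound. Bound members had a median span of 3591 bp and the others 1896 bp, while the median was 2882 bp over all members and 2166 bp over all protein-coding genes. Of 15 members with a span under 2 kb, 3 were bound, against 12.8% of all such genes. Between 2 and 5 kb 7 of 14 were bound, against 21.8%, and from 5 kb upwards 3 of 7, against 43.8%. The share of members bound was above that of all genes mainly between 2 and 5 kb. The classes by length, exon number and arm were chosen after the values were seen. On X 3 of 14 members were bound (all genes of X 24.5%), and on the other arms 10 of 22 (all such genes 22.9%).

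The pooled list, which also holds weak entries, reached most Rab genes. In it 30 of 36 members had at least 1 entry of any strength (83.3%), against 62.0% of all genes. Of these 30, 17 had no optimal summit. The mean number of pooled entries per gene was nearly the same, 2.39 at Rab genes and 2.38 at all genes, with medians of 2 and 1.

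Genes that act on or through Rabs gave a context for these counts. Of 28 Rab regulators outside the symbol pattern, 14 were bound (50%), and 14 in each replicate. They included sky, a GTPase-activating protein of synapses (strongest signal value 503, 7 summits), Crag, an exchange factor of Rab10 and Rab11 (426), spri (334, 10 summits) and SIDL (329.6). Of 24 effectors and tethers, 8 were bound (33.3%), with 7 in replicate 1 and 10 in replicate 2, led by Vps33B (474), Rip11, a Rab11 effector (359), Rbsn-5, a Rab5 effector (312), and BicD, a dynein adaptor bound by Rab6 (237). The strongest summits counted for Vps33B and SIDL lay outside these genes and nearest to a TSS of another gene. That of BicD lay inside it but nearest to the TSS of Sgt. The 36 Rab genes, at 36.1%, lay between these lists, at 33.3% and 50%, and both lists were above the 23.1% of all genes. Median spans were 5393 bp for the regulators and 4176 bp for the effectors, against 2166 bp over all protein-coding genes. Of all genes with a span of 5 kb or more, 43.8% were bound. The regulators were chosen with earlier results of these data known.

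**Figure D4:**
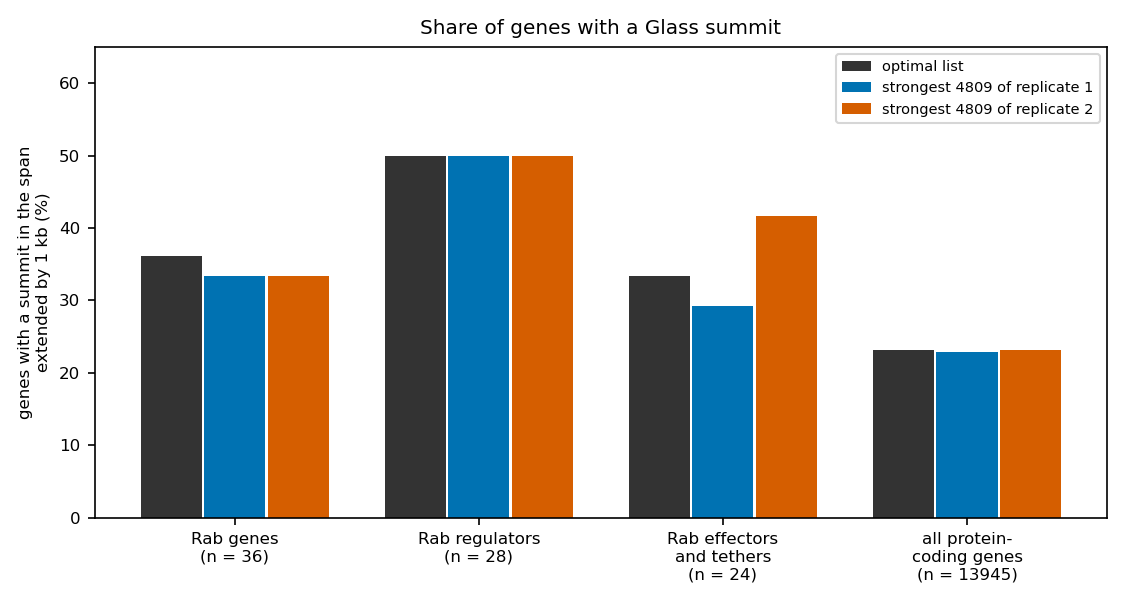
Percent of genes with a summit in the span extended by 1 kb (y axis) for the Rab genes, the 2 lists of related genes and all protein-coding genes, in the optimal list (dark bars) and in the 4809 strongest entries of replicate 1 (blue) and replicate 2 (orange). The Rab genes stand at 36.1% in the optimal list and at 33.3% in each replicate, and all protein-coding genes between 22.8% and 23.1%.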

How the data were processed

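Glass was mapped by ChIP-seq in 2 biological replicates, with chromatin sheared to between 200 and 800 bp per the labels. The authors deposited 4 peak lists for dm6: 1 for each replicate and 1 from both pooled, each of 30000 entries, and the optimal list of 4809. Per the deposited text files, replicate lists derive from an alignment and a control alignment. Peak height was read as the signal value that the authors deposited. They also deposited a −log10 q value, which was 4.10 for every optimal peak. Aligner, caller and read numbers are not given in the sources used here, and the depth is unknown.

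Genes came from Ensembl release 115 (BDGP6.54, the dm6 assembly). All 36 members had the same span and strand in the RefSeq annotation, and no peak passed the end of an arm. Coordinates are 1-based. The summit is the start plus the summit offset of each entry. Replicate lists were cut to their 4809 strongest entries. The nearest entry within 200 bp of an optimal summit gave its rank in a replicate. The symbols of 3 listed genes were replaced by those of the annotation. Every bound member is named, every other by its best pooled entry, and up to 4 bound genes of each list with the strongest peaks. Members and lists were chosen with earlier results of these data known, and no test was made. A further list of related genes is not reported here. Counting was checked on placed summits. Python 3.11.15, numpy 2.4.6 and pandas 2.3.3 were used.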

Additional observations from a re-analysis of the deposited data

How the results depend on the processing

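The 13 bound members became 12 when either replicate was left out, 11 with the span not extended (all genes 12.8%), 19 with 5 kb (all genes 41.3%), 13 by overlap of the interval and 12 without the regulators of Rab3. Optimal peaks above the median signal value gave 6 (all genes 13.6%) and all pooled entries 30 (all genes 62.0%). Members bound at an own TSS, 9, were 5 above that median (all genes 9.18%), 29 with all pooled entries (55.1%), 5 within 500 bp of a TSS (13.8%) and 8 to 10 with a replicate left out (16.7% to 17.1%). The 16 summits were 7 above that median, 86 with all pooled entries and 16 to 18 with a replicate left out. All 16 had entries of both replicates within 100 and 500 bp, and 12 had such entries among the strongest of both lists. With the strongest entry within 200 bp in place of the nearest, chosen after seeing the data, 12 summits in place of 11 were strong in both replicates (all optimal summits 63.3%). The median signal value of 172 was 301 above that median, 77.6 with all pooled entries, 202 with 5 kb and 190 without the regulators of Rab3. It was 89.5 to 122 with a replicate left out. Keeping only peaks above that median raises the value by construction. The values with all pooled entries and with 5 kb cover 30 and 19 members in place of 13. Signal values rank peaks within a list only, so those of a replicate list are not on the scale of the optimal list. The shifts were not tested further. Counting summits only where the nearest TSS is the member's own, an alternative chosen after seeing the data, left 11 members, 12 summits and a median of 172. Leaving out the 5 Rab9 genes of X, chosen likewise, could not change the 13, as none of these genes was bound. With 2 replicates and unknown depth, absence from a list cannot be told apart from weak signal.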

Other observations

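Some entries among the 4809 strongest of a replicate list stood at Rab genes more than 200 bp from any optimal summit of the gene. For each, the rank in the other replicate is that of its strongest entry within 200 bp. Replicate 2 had 3 of these at Rab32, ranked 2637, 4110 and 4477, lying 318, 11 and 317 bp from TSSs of the gene. The ranks in replicate 1 were 11359, 20989 and 23513. Replicate 2 also had 1 at Rab23 (rank 3201, 731 bp from the TSS, rank 11383 in replicate 1). Replicate 1 had 1 at Rab11 (rank 4654, 1175 bp from the TSS) and 1 at Rab39 (rank 3544, 370 bp from the TSS), with ranks of 20296 and 11282 in replicate 2.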
